A study of Homo sapiens with 7 samples.

Results

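The 4 HOX gene clusters of the human liver cancer cell line HepG2 are described here in nucleosome positions, histone modification and gene expression. Members are the loci of the deposited expression table whose listed symbols, split at commas, hold HOX followed by A, B, C or D and a number from 1 to 13. This rule found 31 loci of 30032 in the table, and they name 39 HOX genes, 11 in HOXA, 10 in HOXB, 9 in HOXC and 9 in HOXD. Each cluster was taken as a whole interval, from its lowest listed start to its highest listed end with 20 kb added on each side, and the 4 intervals held 3651 of the 14217405 nucleosome positions in the genome-wide list.

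The study mapped nucleosomes and 5 histone marks in HepG2 in order to describe histone modification one nucleosome at a time. It comprised 7 samples, with 1 sample per assay: native MNase-Seq for nucleosome positions, RNA-Seq, and ChIP-Seq of 3 marks of activity (H3K4me3, H3K9ac, H3K27ac) and 2 of repression (H3K9me3, H3K27me3). All samples came from freshly cultured HepG2 cells with no treatment named, so there are no conditions to compare, and there are no replicates. No P value was therefore computed, and what limits the data as a model is that they describe 1 cell line whose passage and culture number were not given in the sources used here.

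HOX genes encode homeodomain transcription factors that give cells their position along the head-to-tail axis of the embryo. In each cluster the genes lie in the order of their numbers, and low-numbered genes are used towards the head and high-numbered genes towards the tail. H3K4me3, H3K9ac and H3K27ac are marks of active promoters, and H3K27ac is found at active enhancers too. H3K27me3 is deposited by Polycomb repressive complexes, for which HOX clusters are the textbook target in cells that do not express them, and H3K9me3 marks compact heterochromatin.

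Cell identity was checked first. All 13 hepatocyte and HepG2 markers were at an FPKM of 1 or more, among them HNF4A, a liver transcription factor, at 64.6 and ALB, the serum albumin gene, at 10011, the highest of the list. Of 16 markers of blood, endothelial, stromal, neural and pluripotent cells, 3 were at 1 or more, namely ACTA2 at 33.9, POU5F1 at 3.03 and SYP at 1.49. Among all named loci, 48.7% were at 1 FPKM or more. The blood markers PTPRC and CD3E were listed at 0 in both RNA-Seq runs. These values go with the label.

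The expression table lists 2 values per locus for the same sample, called run 1 and run 2 below and counted as 1 replicate. FPKM is a level per length of transcript, so it can be set side by side between genes. Its depth is unknown, because the table holds no read counts.

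Promoter sequences of 4 HOX genes are shown because these genes stand for the 3 states described below. HOXA4 and HOXD1 were expressed and had marks of activity on their loci, HOXA13 had H3K4me3 alone, and HOXB1 had neither marks nor expression. Each line gives the 250 bases before the annotated transcription start, 5′ to 3′ on the strand of the gene, from RefSeq on GRCh38.p14, with CG dinucleotides in capitals. The windows are chr7:27130758-27131007 on the minus strand for HOXA4, chr2:176188418-176188667 on the plus strand for HOXD1, chr7:27200092-27200341 on the minus strand for HOXA13 and chr17:48531012-48531261 on the minus strand for HOXB1.
HOXA4: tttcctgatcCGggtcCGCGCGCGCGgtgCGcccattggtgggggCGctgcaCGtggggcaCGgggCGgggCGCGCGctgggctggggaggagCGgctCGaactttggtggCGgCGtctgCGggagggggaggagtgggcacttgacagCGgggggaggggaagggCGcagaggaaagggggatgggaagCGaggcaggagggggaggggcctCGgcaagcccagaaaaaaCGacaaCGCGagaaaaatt
HOXD1: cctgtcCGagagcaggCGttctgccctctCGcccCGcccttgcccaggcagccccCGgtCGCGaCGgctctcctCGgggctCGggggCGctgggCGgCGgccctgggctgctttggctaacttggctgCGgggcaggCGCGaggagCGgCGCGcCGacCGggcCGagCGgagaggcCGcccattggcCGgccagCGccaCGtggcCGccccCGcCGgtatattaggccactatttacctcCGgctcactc
HOXA13: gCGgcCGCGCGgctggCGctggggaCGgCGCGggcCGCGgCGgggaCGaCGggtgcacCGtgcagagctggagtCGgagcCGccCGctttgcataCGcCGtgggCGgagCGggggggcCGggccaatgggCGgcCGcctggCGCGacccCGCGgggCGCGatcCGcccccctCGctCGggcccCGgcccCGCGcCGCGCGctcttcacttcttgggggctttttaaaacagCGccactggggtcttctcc
HOXB1: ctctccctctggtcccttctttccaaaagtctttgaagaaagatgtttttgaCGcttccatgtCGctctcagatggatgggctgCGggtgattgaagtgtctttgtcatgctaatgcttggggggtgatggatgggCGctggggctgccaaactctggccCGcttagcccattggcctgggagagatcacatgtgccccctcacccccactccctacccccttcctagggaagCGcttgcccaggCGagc

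The 4 windows held 26 CG dinucleotides for HOXA4, 31 for HOXD1, 40 for HOXA13 and 7 for HOXB1. The density of CG was thus highest in HOXA13, a gene under 1 FPKM, and lowest in HOXB1. RefSeq gave 27 promoter windows for 20 of the 39 HOX genes, counted from 250 bases before the start to 50 after it, and HOXC4 and HOXC5 share 1 window in it. The median HOX window had 22 CG dinucleotides, against 14 over 35116 windows of the same length. At least 10 CG dinucleotides were found in 23 of 27 HOX windows (85.2%), compared with 56.4% of all windows. Most HOX windows belong to HOXA and HOXD genes. HOXB1 was the only HOXB gene with a window, and HOXC4 and HOXC5 were the only HOXC genes.

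2 short motifs were searched on both strands of these windows. TATAAA, the core of the TATA box, was present in 5 of 27 HOX windows (18.5%), in windows of HOXA3, HOXA9, HOXA10 and HOXD13, and in 11.5% of all windows. TGATTNAT, the site that HOX proteins bind with PBX cofactors, was present in 2 HOX windows (7.41%), those of HOXA2 and HOXD11, and in 2.82% of all windows. With 27 windows these shares are descriptions only. Since RefSeq positions are on GRCh38.p14 and the deposited data are on hg19, no mark was placed on a promoter window.

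In HepG2, HOX genes reached 1 FPKM in a stretch of neighbouring HOXA genes and in 1 gene of HOXD. HOXA2, HOXA3, HOXA4, HOXA5, HOXA6 and HOXD1, 6 of 39 genes, were listed on a locus at 1 FPKM or more. On the strand of the genes, HOXA2 and HOXA3 share 1 locus, and so do HOXA5 and HOXA6. The genes of such a shared locus cannot be told apart in its value. Another 12 genes lay from 0.1 to 1, of which 7 were HOXC genes, and 21 lay under 0.1. No HOXB gene and no HOXC gene reached 1. Counted as loci, 6 of 31 (19.4%) reached 1 FPKM, whereas 48.7% of all named loci did. Under 0.1 were 19 of 31 HOX loci (61.3%), against 39.8% of all named loci. In bulk RNA such as this, a few cells with a high level and many cells with a low one cannot be told apart.

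HOXD1, a group 1 gene at the head end of its cluster, was the most highly expressed, with 9.98 FPKM in run 1 and 9.54 in run 2. The locus listing HOXA5 and HOXA6 followed with 4.001 and 3.951. HOXA5 is known for its role in the lung and the trunk skeleton. Next came the locus listing HOXA2 and HOXA3, genes of hindbrain and neural crest patterning, with 3.78 and 3.58. HOXA4 had 2.89 and 2.95. The ranges of both runs did not overlap between these 4 loci, so their order was the same in each run. The largest difference between runs in any HOX locus at 1 FPKM or more was 0.439, and it was that of HOXD1.

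A pair of additional loci at 1 FPKM or more carried HOXA symbols but were numbered with the opposite strand. One listed HOXA3 at 2.16 and 1.87 FPKM, and the other listed HOXA2 at 1.372 and 1.495. Whether the RNA-Seq library kept the strand is not given in the sources used here, and these loci have the same listed coordinates as the HOXA2, HOXA3 and HOXA4 loci, so reads of sense and antisense transcripts cannot be told apart in these values. One more opposite-strand locus, with the symbol HOXA6, was at 0 in both runs. Without the opposite-strand loci the 6 genes at 1 FPKM or more were the same.

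From HOXA7 to HOXA13 the levels were more than an order of magnitude below those of the expressed HOXA genes on the gene strand. HOXA7, which lies directly next to the expressed stretch, had 0.111 and 0.154 FPKM. The locus of HOXA9 and HOXA10, genes known for their role in blood stem cells, had 0.0704 and 0.0356. HOXA11 had 0.0462 and 0, and HOXA13, the last gene of the cluster, had 0.169 and 0.119. Values of HOXA7 and HOXA13 overlapped between the runs, and neither can be ranked above the other.

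In HOXD, the locus of HOXD3 and HOXD4 had 0.201 and 0.223 FPKM. This locus has the same listed coordinates as HOXD1, yet its level was far below that of HOXD1. The locus of HOXD9, HOXD10 and HOXD11 had 0 and 0.00384. HOXD8, HOXD12 and HOXD13, of which the last patterns digits and genital structures, were listed at 0 in both runs.

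HOXC was low, and 4 of its 6 loci lay under 0.1 FPKM. A single locus listing HOXC4, HOXC5, HOXC6, HOXC8, HOXC9 and HOXC10 had 0.315 and 0.339 FPKM, and no gene among its 6 can be told apart from the others. HOXC13, known for hair and nail formation, had 0.123 and 0.184 on its own strand and 0.128 and 0.0373 on the opposite one. HOXC12 had 0 and 0.0131, HOXC11 was at 0 in both runs, and the opposite-strand HOXC9 locus had 0.00490 and 0.0115.

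HOXB had almost no signal. The locus of HOXB3, HOXB5 and HOXB6 had 0.0117 and 0.0135 FPKM, and the other 7 of its 8 loci were at 0 in both runs, including HOXB1, HOXB2, HOXB4, HOXB13 and the locus of HOXB7, HOXB8 and HOXB9. In total 12 of 31 HOX loci (38.7%) were at 0 in both runs, compared with 26.2% of all named loci. The median over the 31 loci was 0.0126 FPKM, or −5.47 as log2(FPKM + 0.01), and that over all named loci was 0.790 FPKM, or −0.32.

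**Figure D1:**
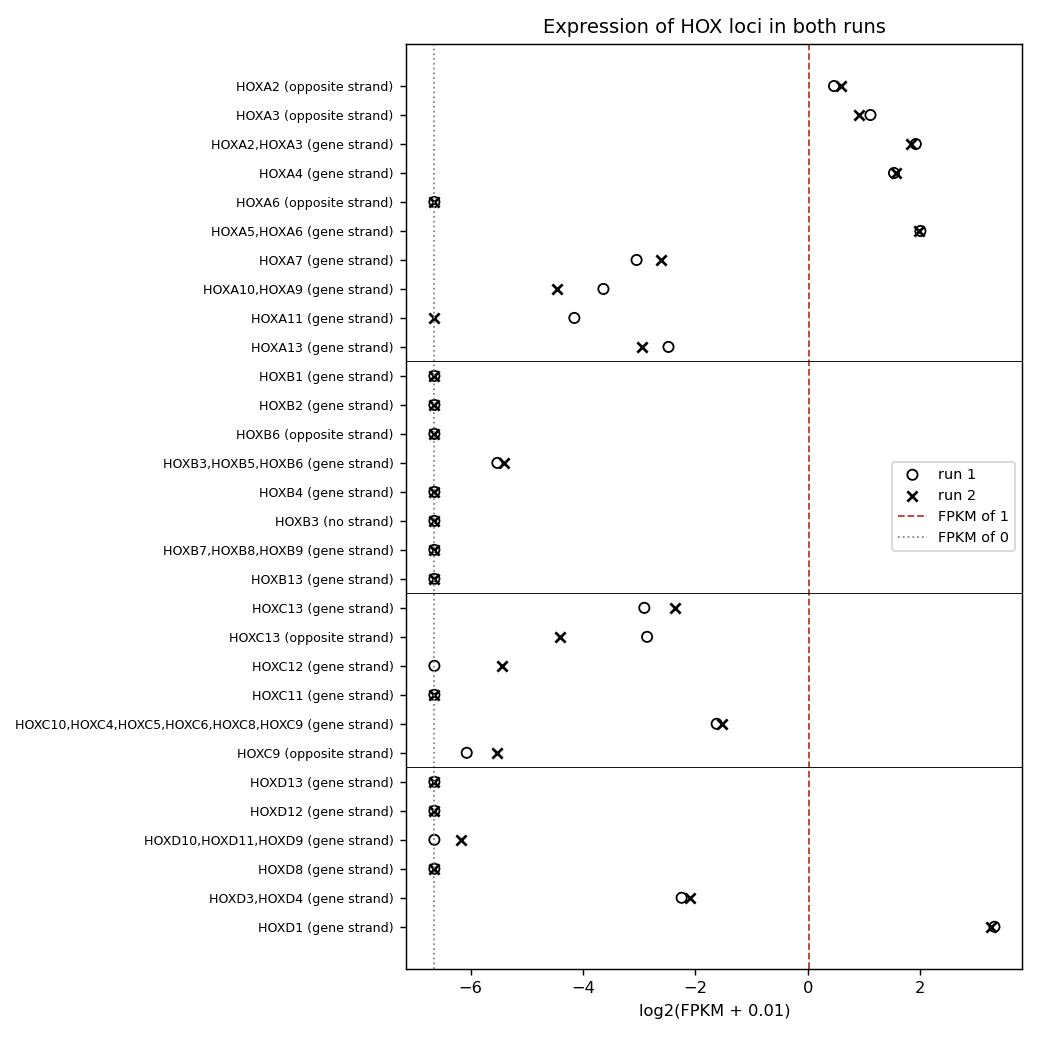
FPKM of the HOX loci described in the text as log2(FPKM + 0.01) on the horizontal axis, with circles for run 1 and crosses for run 2, grouped from HOXA at the top to HOXD at the bottom. The dashed line is an FPKM of 1 and the dotted line an FPKM of 0; 6 loci lie right of the dashed line, 5 of them in HOXA, and all HOXB loci lie at or near the dotted line.

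Of 15 other named loci that overlap an interval, 10 were at 0 in both runs, as were 26.2% of all named loci, and 1 reached 1 FPKM, as did 48.7% of all named loci. That locus was HAGLR, a long noncoding RNA gene listed as LOC401022, with 23.5 and 24.1 FPKM. It is numbered on the strand opposite to HOXD1 and has the listed coordinates of HOXD1, HOXD3 and HOXD4, and its level was above that of each HOX gene in both runs. As for the opposite-strand HOXA loci, reads of sense and antisense transcripts cannot be told apart in the values of this block. HOTAIR, a long noncoding RNA of the HOXC cluster known to act with Polycomb complexes, was at 0 in both runs, and HOXA11-AS had 0 and 0.0320. EVX2, a homeobox gene next to HOXD13, and PRAC1 and PRAC2, neighbours of HOXB13, were at 0, as were HOXB-AS3 and the microRNA genes MIR10A, MIR196A1, MIR196A2, MIR615 and MIR3185. A value of 0 for a microRNA gene says little, since mature microRNAs are too short for such libraries. A block at chr12:54452037-54517280, which reaches beyond the HOXC interval, lists FLJ12825 at 0.0621 and 0.0835 FPKM, LOC100240734 at 0.136 and 0, and LOC100240735 at 0 and 0.125. These 3 loci were thus under 1 FPKM in both runs. None of the 10 loci without a symbol reached 1 FPKM.

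Marks of activity lay mainly in HOXA and HOXD, the clusters with a gene at 1 FPKM or more. The listed HOX loci lie on chromosome 7 for HOXA and span chr17:46606806-46806111 for HOXB, chr12:54329114-54449814 for HOXC and chr2:176957531-177055724 for HOXD on hg19. HOXA and HOXB loci are numbered on the minus strand, so that low-numbered genes lie at the lowest coordinates with their starts on the right, and HOXC and HOXD loci are on the plus strand with the high-numbered genes at the lowest coordinates. With the added 20 kb, the intervals measured 147 kb, 239 kb, 161 kb and 138 kb and held 766, 1298, 840 and 747 positions. At least 1 of the 5 marks was present on 44 positions of HOXA, 6 of HOXB, 17 of HOXC and 47 of HOXD. These 114 positions made up 3.12% of all positions in the intervals, whereas 1.43% of the genome-wide list was marked.

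H3K4me3 was dense in HOXA and HOXD. It was on 39 of 766 positions in HOXA, 5.09% with an exact Clopper-Pearson 95% interval from 3.65 to 6.89, and on 35 of 747 in HOXD, 4.69% from 3.28 to 6.46. In HOXC it was on 10 of 840 positions (1.19%, 0.572 to 2.18), and in HOXB on 5 of 1298 (0.385%, 0.125 to 0.897). The genome-wide share was 0.603%, below both bounds in HOXA and HOXD and inside the intervals of HOXB and HOXC. All such intervals cover counting error only, and they are too narrow to the degree that neighbouring nucleosomes share a mark.

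H3K9ac was on 23, 0, 10 and 25 positions of HOXA, HOXB, HOXC and HOXD, and H3K27ac on 19, 0, 3 and 24. Acetylation was thus detected in HOXA, HOXC and HOXD. The 0 of 1298 positions in HOXB allows a share of up to 0.231% for either mark, and 0.539% of all positions had H3K9ac and 0.674% had H3K27ac. A count of 0 was common in stretches of this length, however. Of 12049 stretches of the HOXB length laid end to end over the genome, 40.9% had 0 H3K9ac positions and 46.6% had 0 H3K27ac positions. The trivalent mark H3K4me3/H3K9ac/H3K27ac, that is all 3 on 1 nucleosome and none of the others, was on 16 positions of HOXA (2.09%, 1.20 to 3.37) and 13 of HOXD (1.74%, 0.930 to 2.96). It was on 2 positions of HOXC (0.238%) and 0 of HOXB, against 0.301% of the genome-wide list. Of the stretches of the HOXB length, 56.5% had 0 trivalent positions. High counts were set beside stretches too. The HOXA counts of H3K4me3, H3K9ac, H3K27ac and the trivalent mark were reached in 0.517%, 2.68%, 8.76% and 2.08% of stretches of the HOXA length. For HOXD these were 0.663%, 1.72%, 4.56% and 3.37%. The H3K9ac count of HOXC was reached in 17.1% of stretches of its length.

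H3K27me3 was on 1 of 766 positions in HOXA, 1 of 1298 in HOXB and 3 of 840 in HOXC. The share in HOXC, 0.357% with an interval from 0.0737 to 1.04, was the highest of the 4. In HOXD it was on 0 of 747, which allows a share of up to 0.402%. The sum was 5 of 3651, 0.137% with an interval from 0.0445 to 0.319, which encloses the genome-wide 0.185%, as does the interval of HOXC. All these shares are those of the deposited lists, which hold 203848 marked positions, 26271 of them with H3K27me3. These lists are shorter than the set of marked nucleosomes that the study describes, and the part of that difference in the shares was not tested. H3K9me3 was on 1 position, in the outer 20 kb of HOXA, and on 0 positions of the other 3 clusters, against 0.243% of all positions. Of genome stretches of the HOXB, HOXC and HOXD lengths, 20.8%, 30.2% and 34.4% had 0 H3K9me3 positions. For H3K27me3, 44.1% of stretches of the HOXD length had 0 positions, and 22.1% of those of the HOXC length had 3 or more.

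**Figure D2:**
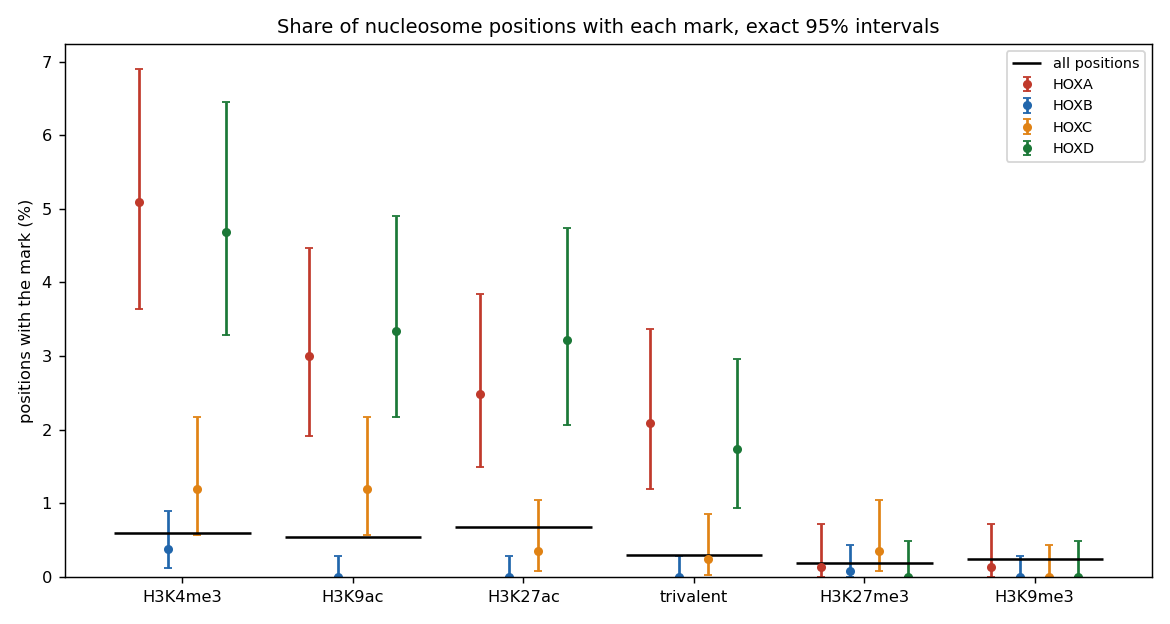
Share of nucleosome positions with each mark in percent, for the 4 HOX intervals, with exact 95% Clopper-Pearson intervals as error bars and the share over all positions as a black line. The error bars of HOXA and HOXD lie above the line for H3K4me3, H3K9ac, H3K27ac and the trivalent mark, and that of HOXC does for H3K9ac. For H3K27me3 the line runs through the error bars of all 4 clusters.

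H3K4me3 alone was the most frequent combination on single nucleosomes. Among the 114 marked positions, 39 had H3K4me3 alone, 31 were trivalent and 17 had H3K4me3/H3K9ac. A further 9 had H3K27ac alone, 6 had H3K9ac alone, 5 had H3K27me3 alone, 4 had H3K9ac/H3K27ac, 2 had H3K4me3/H3K27ac and 1 had H3K9me3 alone. H3K4me3 without either acetylation made up 39 of 89 H3K4me3 positions, 43.8% from 33.3 to 54.7, compared with 27.6% of all H3K4me3 positions. By cluster this was 17 of 39 in HOXA, 5 of 5 in HOXB, 3 of 10 in HOXC and 14 of 35 in HOXD. H3K4me3 and H3K27me3 were together on 0 of 89 H3K4me3 positions, and on 0.453% of those in the genome-wide list, so that none in 89 is near the background. H3K27ac without H3K4me3 was found on 11 of 24 H3K27ac positions in HOXD (45.8%) and on 2 of 19 in HOXA, compared with 51.3% in the genome-wide list.

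Within the clusters, the marks were divided by block. A block is an interval of listed coordinates that 1 or more loci share, and the 31 HOX loci lie on 21 blocks, 7 in HOXA, 5 in HOXB, 4 in HOXC and 5 in HOXD. Marks were counted on a block or within 2 kb of it, so a few positions between close neighbours count for both. All 3 blocks with a gene-strand locus at 1 FPKM or more had trivalent nucleosomes, 28 in sum. Of the 18 blocks under 1 FPKM, 1 had them, with 2 nucleosomes, and 11 had H3K4me3. In 10 of these 11 there was H3K4me3 and no H3K27ac, and 7 of the 18 blocks had no mark at all.

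The block of HOXA2, HOXA3 and HOXA4 had 243 positions, of which 15 had H3K4me3, 13 H3K9ac, 12 H3K27ac and 10 were trivalent. That of HOXA5 and HOXA6 had 83, with 8 H3K4me3, 7 H3K9ac, 7 H3K27ac, 6 trivalent and 1 H3K27me3. In the block of HOXD1, HOXD3 and HOXD4, 38 of 245 positions were marked (15.5%), the highest share of the 21 blocks, with 26 H3K4me3, 20 H3K9ac, 23 H3K27ac and 12 trivalent. These are the 3 blocks with a gene-strand locus at 1 FPKM or more, which in the last of them was HOXD1 and not the locus of HOXD3 and HOXD4. The block of HOXD1 is the listed block of HAGLR too, at 23.5 and 24.1 FPKM on the opposite strand. Since each block holds several genes, the marks cannot be given to 1 of them.

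The HOXA blocks from HOXA7 to HOXA13 all had H3K4me3 and lacked H3K27ac. HOXA7 had 3 with H3K4me3, and the H3K27me3 position of the neighbouring block was within 2 kb of it. HOXA9 and HOXA10 had 3, HOXA11 had 6 of which 2 with H3K9ac, and HOXA13 had 4. None of them was trivalent.

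HOXB blocks were nearly bare. The block of HOXB3, HOXB4, HOXB5 and HOXB6 had 1 H3K4me3 position in 339, and that of HOXB7, HOXB8 and HOXB9 had 3 in 142, each without acetylation. HOXB1, HOXB2 and HOXB13 had 0 of 29, 31 and 43 positions marked.

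Of the HOXC blocks, the one of HOXC4 to HOXC10 had 9 H3K4me3, 9 H3K9ac and 3 H3K27ac in 416 positions, with 2 trivalent, and it is the block under 1 FPKM that had them. HOXC11 had 1 position with H3K4me3 and H3K9ac and 2 with H3K27me3. HOXC12 and HOXC13 had none. In HOXD, HOXD13 had 2 H3K4me3 positions, the block of HOXD9, HOXD10 and HOXD11 had 1, and HOXD8 and HOXD12 had none.

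**Figure D3:**
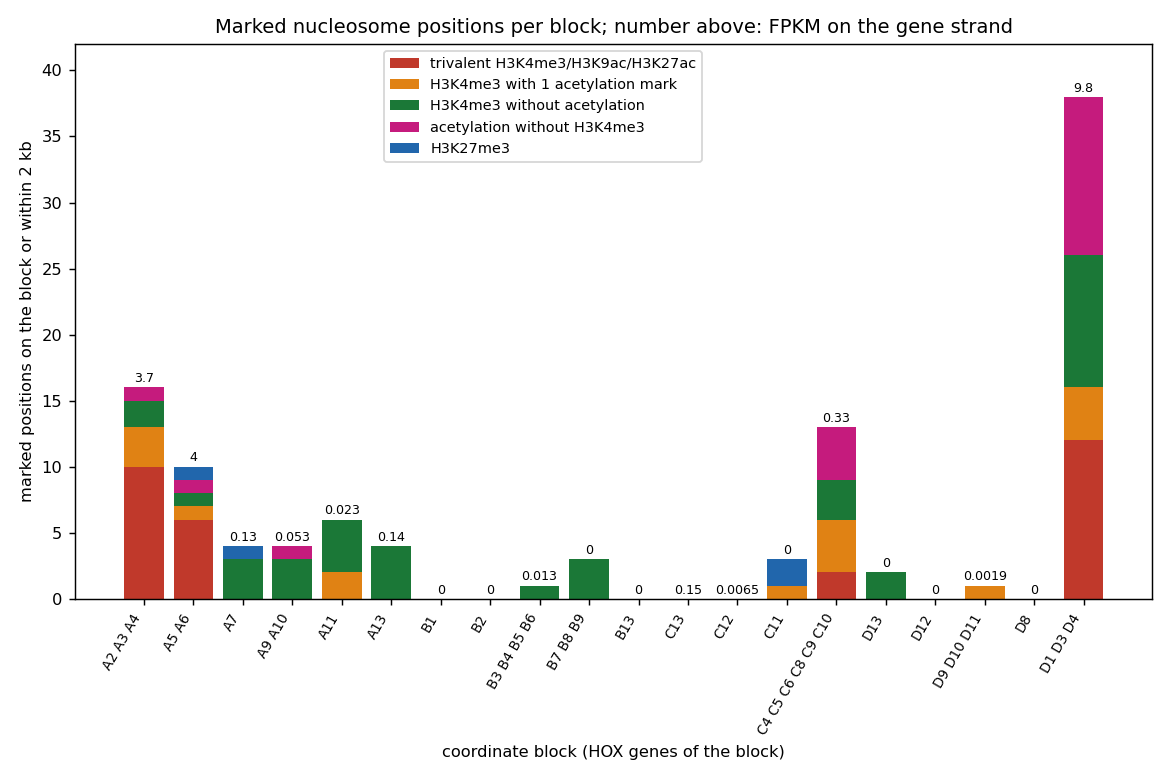
Number of marked nucleosome positions on the coordinate blocks described in the text or within 2 kb, stacked by combination of marks, with the highest gene-strand FPKM of the block printed above each bar. The blocks of HOXA2 to HOXA4, HOXA5 with HOXA6, and HOXD1 with HOXD3 and HOXD4 carry 28 of the 30 trivalent nucleosomes, and most HOXB bars are at 0. The FPKM above the bar of HOXD1 leaves out HAGLR, which has the same listed coordinates on the opposite strand.

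Marked nucleosomes lay in short strings. Joining marked positions whose starts were at most 1 kb apart gave 36 runs, 14 in HOXA, 4 in HOXB, 7 in HOXC and 11 in HOXD, of which 23 held more than 1 position and 9 held a trivalent one. The longest had 15 positions at chr2:177052322-177055246, near the right end of the block of HOXD1, the HOXD gene at this end of the cluster. This block is the listed block of HAGLR too. All 15 had H3K4me3, 12 had H3K9ac and 9 had H3K27ac and were trivalent, and the positions right of the trivalent ones lacked H3K27ac. A run of 7 at chr2:177039184-177040461 had the reverse makeup, with H3K27ac on 7, H3K9ac on 3 and H3K4me3 on 1. At the left end of the same block, 9 positions at chr2:177014487-177017691 held 7 with H3K4me3 and none that was trivalent.

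In HOXA, 4 runs held trivalent nucleosomes. They were at chr7:27161434-27162896 with 5 trivalent of 6 marked, chr7:27169492-27171003 with 5 of 7, chr7:27181732-27183263 with 3 of 6 and chr7:27189974-27190531 with 3 of 3. The first 2 lie on the block of HOXA2 to HOXA4 and the others on that of HOXA5 and HOXA6. The 16 trivalent nucleosomes spanned 29.0 to 57.9 kb from the lowest listed start. To the right of them, towards HOXA13, 16 further positions had H3K4me3 and 0 had H3K27ac. The run at HOXA13, chr7:27238807-27240491, comprised 4 H3K4me3 positions without acetylation on both sides of its listed right end, the 5′ end of a minus-strand gene.

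In HOXC, the run with the 2 trivalent nucleosomes was at chr12:54393417-54394796, on 6 positions of which 5 had H3K4me3, 5 H3K9ac and 3 H3K27ac. A second run at chr12:54411354-54412261 had 3 H3K4me3 and 3 H3K9ac on 5 positions and no H3K27ac. In HOXB the one run of more than 1 position, chr17:46687657-46688231, had 3 with H3K4me3 alone.

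The 5 H3K27me3 positions lay at 4 separate places. In HOXA it was the position at chr7:27192537-27192676, 306 bp inside the 5′ end of the block of HOXA5 and HOXA6 and between trivalent nucleosomes on one side and H3K4me3 of HOXA7 on the other. In HOXB it was at chr17:46761142-46761281, between HOXB9 and HOXB13. In HOXC, 1 was 6933 bp left of HOXC13 at chr12:54322042-54322181, and the other 2 overlapped each other at chr12:54367397-54367651 on the block of HOXC11, which is the listed block of HOTAIR too.

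**Figure D4:**
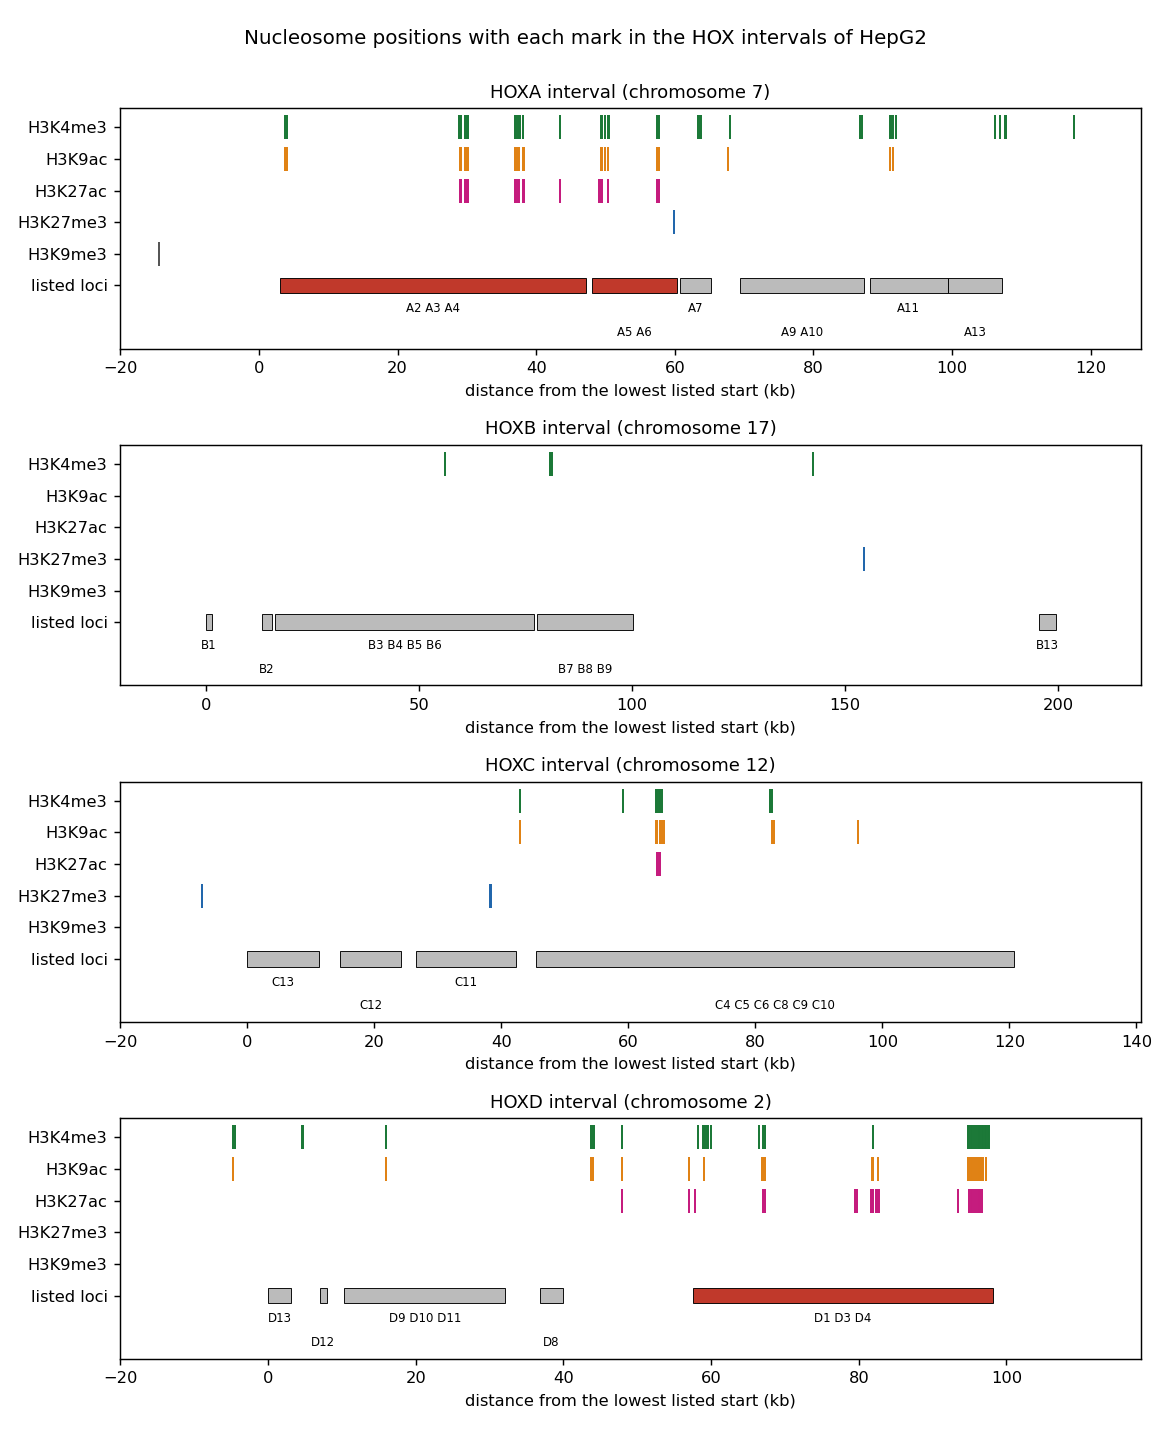
Marked nucleosome positions in the 4 HOX intervals, as distance in kb from the lowest listed start, with 1 row per mark and 1 tick per position. Boxes below are the listed coordinate blocks described in the text, with their HOX genes, red at an FPKM of 1 or more and grey under 1. H3K9ac and H3K27ac ticks gather over the red boxes of HOXA and HOXD, H3K4me3 ticks go on over the grey boxes up to HOXA13, and H3K27me3 ticks number 5 in all.

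Loci under 0.1 FPKM were compared with all named loci at such levels. Of 19 HOX loci under 0.1 FPKM, 12 had H3K4me3 on the locus or within 2 kb (63.2%), whereas this was so for 26.3% of all named loci under 0.1. Among the 12 are the 4 loci of the block of HOXB3 to HOXB6, which has 1 H3K4me3 position in 339. The opposite-strand HOXA6 and HOXC9 loci are among the 12 too. H3K27me3 was found at 2 of these 19 (10.5%), and the interval from 1.30 to 33.1 encloses the 31.9% of named loci under 0.1. These 2 were HOXC11 and the opposite-strand HOXA6 locus, which lies on the block of HOXA5 and HOXA6. Trivalent nucleosomes were at 2 (10.5%) against 13.5%, the opposite-strand HOXA6 and HOXC9 loci, whose blocks hold gene-strand loci at 3.98 and 0.327 FPKM. H3K9ac was at 6 of them (31.6%) against 26.1%, H3K27ac at 2 (10.5%) against 18.1%, and H3K9me3 at 0 against 25.1%. Counted as blocks by their highest gene-strand FPKM, 13 were under 0.1, of which 7 had H3K4me3, 4 had H3K9ac, 1 had H3K27me3 and 0 had H3K27ac or trivalent nucleosomes. Of the 25 HOX loci under 1 FPKM, 13 had H3K4me3 and no H3K27ac (52.0%), compared with 12.9% of named loci under 1. The 4 loci of the block of HOXB3 to HOXB6 are among these 13. All 6 HOX loci at 1 FPKM or more had a trivalent nucleosome, as had 93.6% of named loci at that level.

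Over all 31 HOX loci, H3K4me3 was at 23 (74.2%) against 66.5% of named loci, H3K9ac at 15 (48.4%) against 66.1%, H3K27ac at 10 (32.3%) against 60.5% and trivalent nucleosomes at 10 (32.3%) against 56.5%. H3K27me3 was at 4 (12.9%) against 22.3%, and H3K9me3 at 0 against 25.3%. The intervals of H3K27ac and trivalent nucleosomes (16.7 to 51.4 for each) and of H3K9me3 (0 to 11.2) lay below the background. Those of H3K4me3 (55.4 to 88.1), H3K9ac (30.2 to 66.9) and H3K27me3 (3.63 to 29.8) enclosed it. Of the 4 loci with H3K27me3, those on the block of HOXA5 and HOXA6 and HOXA7 have the same 1 position. HOX loci are not independent here, as 20 of the 31 share coordinates with another locus of the table, and HOX loci on 1 block have the same marks. They are also shorter, with a median length of 15815 bp against 33494 bp, and the part of length in these shares was not tested.

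Genes of other developmental transcription factor families (PAX, the sine oculis homeobox genes, DLX, LHX, NKX, IRX, TBX, GATA, OTX, EMX, MSX, GSX, CDX, EN and GBX) were set beside the HOX genes, a set chosen after the HOX values were seen. H3K27me3 was at 23 of its 54 loci under 0.1 FPKM, 42.6% with an interval from 29.2 to 56.8, and at 2 of the 19 HOX loci under 0.1, whose interval overlaps this one. H3K4me3 was at 20 of the 54 (37.0%, 24.3 to 51.3). Summed over those loci, 0.496% of positions had H3K27me3 in the other families and 0.108% in HOX (3 of 2785). Over all named loci under 0.1 FPKM this share was 0.251%. In these sums a position counts once for each locus that holds it. The 339 positions of the block of HOXB3 to HOXB6 were thus counted for each of its 4 loci. The part of this repeated counting in the shares was not tested.

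Regions just outside the clusters were counted in the same way. In the 100 kb beyond each side of the HOXA interval, 8 of 1028 positions had H3K27me3 (0.778%, 0.337 to 1.53) and 1 had H3K4me3. Inside it, 1 of 766 positions had H3K27me3 (0.131%, 0.00331 to 0.725) and 39 had H3K4me3. These H3K27me3 intervals overlap. Around HOXD, 15 of 1100 positions had H3K4me3 and 8 were trivalent (0.727%, 0.314 to 1.43), against 1.74% trivalent inside (0.930 to 2.96). These trivalent intervals overlap. Around HOXB, 13 of 1105 positions had H3K4me3 and 8 had H3K27ac, so acetylation was detected next to the cluster but not in it. Around HOXC, 13 of 1043 had H3K27ac and 1 had H3K4me3.

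Nucleosome spacing in the clusters was close to that of the genome-wide list. The median distance from 1 start to the next was 178 bp in HOXA, 175 bp in HOXB, 180 bp in HOXC and 175 bp in HOXD, with 180 bp over the whole list. Neighbours overlapped in 24.1%, 23.0%, 21.6% and 21.4% of cases, with 23.3% over the whole list. Where both neighbours were marked, 21 of 69 distances in the 4 intervals were over 250 bp (30.4%), and elsewhere 468 of 3578 were (13.1%). Between 2 trivalent neighbours the median was 199 bp over 18 distances.

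Genes of proteins that work with HOX proteins or on the HOX clusters were read against the 48.7% of all named loci at 1 FPKM or more. Of 9 cofactors of HOX proteins, 5 were at 1 FPKM or more, a share near that background, with PBX2 highest at 28.3 and PBX4 listed at 0. Among 27 Polycomb genes, 26 were at 1 or more, from 0.954 for CBX7 to 61.7 for RBBP7, and the core subunits of the complex that deposits H3K27me3, EZH2, SUZ12 and EED, had 16.2, 20.7 and 12.6. Of 12 listed Trithorax genes, which include writers of H3K4me3, 10 could be matched to the table by current or older symbol, and all 10 were at 1 or more, from 3.81 for KMT2C to 43.0 for DPY30. KMT2A, the methyltransferase known for keeping HOX genes on, was listed under its older symbol MLL with 8.26 and 8.59.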

How the data were processed

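HOX members and all gene lists were chosen with earlier results of these data known. According to the study's methods and the submitters' processing notes, reads of HepG2 were aligned to hg19 (BWA for MNase-Seq and ChIP-Seq), nucleosome positions were called with DANPOS at default parameters, and peaks were called at these positions with NUCLIZE, with 4-fold enrichment or more and limits of 0.01 on both the P value and the false discovery rate, after removal of peaks of oblique or U shape. Of the antibodies that the protocol lists for each mark, it is not stated which gave the deposited peaks. The deposited lists hold coordinates and identifiers and no heights, so depth per position is unknown. The authors deposited RNA-Seq values as FPKM in 2 columns of 1 sample, in the layout of Cuffdiff. For RNA-Seq the notes name TopHat2 2.1.0, Bowtie, HOMER 4.7 and edgeR, while the program that gave the FPKM values is not given in the sources used here. Fold changes, p-values and q-values of the authors' own comparison of these columns were not used.

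A peak marked the position whose identifier it carries, and all peaks had one. A position was inside an interval when its midpoint was. The FPKM of a locus is the mean of both columns, and that of a gene in a list is the highest among its loci. Strand was taken from the numbering of loci, which matched RefSeq for 13116 of 13741 loci with 1 symbol (95.5%). Peak starts were written with the first base as 1, and locus coordinates as listed. Sequences came from RefSeq on GRCh38.p14, and no coordinates were converted. Shares have exact Clopper-Pearson 95% intervals, and the limit for a count of 0 is 3 counts. Named genes were all HOX genes, all named loci overlapping an interval, and the lowest and highest of each list with core members. Values of 1 HOX gene and 1 marker gene are counted in the totals but not reported here singly. Counting and joining were tested on simulated data. Alternatives were other flanks, any overlap, other FPKM limits and pseudocounts, loci above 0, loci with their own coordinates, other windows, and, added after seeing the data, gene-strand loci only. The programs were Python 3.11.15, pandas 2.3.3, numpy 2.4.6, matplotlib 3.10.9 and scipy 1.17.1.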

Additional observations from a re-analysis of the deposited data

How the results depend on the processing

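Of 66 alternatives over 13 results, 58 were taken as unmoved and 8 as moved. A reversal was not looked for. The limit was 1.5 times for a count, the spread of both runs for the median, and, for the 40 on shares of positions, the exact 95% interval of the value, which is wide for a few positions. All 40 lay inside it, although H3K27me3 went from 0.131% to 0.279% in HOXA with 50 kb on each side and from 0.0770% to 0.231% in HOXB with any overlap of a peak, and the trivalent mark in HOXC from 0.238% to 0.476% with any overlap. The number of HOX genes at 1 FPKM or more, 6, became 18 at a limit of 0.1 and 1 at a limit of 5. The median log2 value of −5.47 became 0.018 with a pseudocount of 1 and −2.61 over loci above 0. With the 11 loci that have coordinates of their own, which hold 15 genes, 0 genes were at 1 FPKM or more, and the loci with H3K4me3 went from 23 to 6, with trivalent nucleosomes from 10 to 0 and with H3K27me3 from 4 to 1, as fewer loci were counted. A stricter peak threshold could not be set, because the lists hold no scores. No paired analysis was possible because each assay has 1 sample and no groups were compared. Without replicates, nothing here measures biological spread, and the absence of a peak cannot be told from low depth at that position.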
